A study of Mus musculus with 20 samples.

Results

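The 44 genes described here build and feed the DNA replication machinery of the mouse. They were chosen by symbol for their function, with earlier results of these data known. The only measured value in the rule is a filter on low values. All 44 of the 44 symbols were found among the 37748 gene entries of the deposited table, and all 44 passed the filter on low values (a normalised signal of 1 or more in 5 or more of the 20 libraries), as did 10890 entries in all. By role, 15 genes license origins or control licensing, 6 activate the helicase, 8 encode polymerase and primase subunits, 11 encode the sliding clamp, its loader, the single-strand binding protein and the enzymes that join Okazaki fragments, and 4 supply deoxynucleotides.

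RNA was sequenced from CFU-E, the committed erythroid progenitors of bone marrow, sorted as live, lineage-negative cells with high c-Kit that lacked Sca-1, CD41, CD16/32 and CD150 and carried CD105. There were 4 groups of 5 libraries. Mx1-Cre Srsf2P95H/+ mice, called P95H here, carry a heterozygous proline-to-histidine change in the splicing factor SRSF2. Mx1-Cre mice are their controls, and the Cre transgene is therefore common to all 4 groups. Mice of each genotype were injected under the skin on days 0 and 1 with phenylhydrazine (PHZ, 30 mg/kg) or phosphate-buffered saline (PBS), and cells were sorted on day 4. The Mx1 promoter responds to interferon and acts in many tissues besides blood. How recombination was induced, and the age of the mice, are not given in the sources used here. Signals per gene cannot show an amino acid change, and the genotype is therefore unchecked here. Each library name ends in an identifier of its own, and the labels do not say outright that these are single mice, so p-values measure the spread between these libraries.

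PHZ damages circulating red cells, and the anaemia that follows raises erythropoietin and drives erythroid progenitors to expand. CFU-E divide rapidly and rely on continuous DNA synthesis. In each cell cycle the origin recognition complex (ORC), with CDC6 and CDT1, loads the hexameric MCM2-7 helicase on DNA before S phase, and geminin blocks CDT1 afterwards so that no origin is licensed again. CDC45 and GINS turn the loaded hexamer into an active helicase. Polymerase alpha and primase lay down primers that polymerases delta and epsilon extend on the PCNA clamp, which replication factor C (RFC) loads. Ribonucleotide reductase, thymidylate synthase and thymidine kinase supply the deoxynucleotides. Many of these genes are textbook targets of E2F transcription factors.

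An E2F-type site was looked for in the promoters because many replication genes are textbook E2F targets. The RefSeq promoter table for GRCm38.p6 held 36 of the 44 genes. The motif was TTTCCCGC, TTTCGCGC, TTTGCCGC or TTTGGCGC on either strand, within the 250 bases before the annotated start. It was found for 9 of the 36 genes (25.0%), which were Cdc6, Gins3, Mcm5, Mcm6, Mcm7, Orc1, Orc3, Pola1 and Rfc3. Among 8261 entries that passed the filter and had a promoter in the table, 346 (4.19%) held the motif, and 611 of all 32851 windows did (1.86%). Of 28 other initiation and fork factors with a promoter 3 held it (10.7%), and of 20 mitotic genes 1 did (5%). Of the members called higher after PHZ in at least 1 genotype, 2 of 6 held the motif, against 1 of the 6 matched members called lower and 6 of the 24 matched members never called. A match describes the letters of the window and is not evidence of binding.

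The 3 promoter stretches shown are those with a match and no annotated exon in the printed 180 bases, which end immediately before the start. They include 2 subunits of the MCM helicase that PHZ did not change past the threshold and Pola1, which was higher after PHZ in P95H. Capitals mark the motif on either strand, and adjoining capitals in Mcm5 and Mcm6 are 2 overlapping matches.
Mcm5 promoter, chr8:75109329-75109508, plus strand: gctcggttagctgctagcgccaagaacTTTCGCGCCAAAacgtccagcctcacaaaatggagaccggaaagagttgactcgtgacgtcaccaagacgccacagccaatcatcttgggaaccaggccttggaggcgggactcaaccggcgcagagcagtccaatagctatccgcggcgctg
Mcm6 promoter, chr1:128359706-128359885, minus strand: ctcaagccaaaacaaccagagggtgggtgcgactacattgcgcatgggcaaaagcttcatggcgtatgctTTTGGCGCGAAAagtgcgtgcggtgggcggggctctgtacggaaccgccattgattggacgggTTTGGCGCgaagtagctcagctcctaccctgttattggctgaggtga
Pola1 promoter, chrX:93632156-93632335, minus strand: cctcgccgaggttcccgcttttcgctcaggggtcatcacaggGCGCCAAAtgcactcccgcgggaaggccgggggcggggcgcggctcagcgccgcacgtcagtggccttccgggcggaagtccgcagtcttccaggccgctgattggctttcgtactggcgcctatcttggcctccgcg
Counted from the base before the start, the first base of a match lay at 153 and 149 in Mcm5, at 110, 106 and 47 in Mcm6 and at 138 in Pola1. In the genes not printed, it lay at 165 in Mcm7, 138 in Cdc6, 41 in Gins3 and Orc3, 27 in Orc1 and 10 in Rfc3. After PHZ these 9 genes took no common direction: Mcm7 was lower in both genotypes, Orc3 was higher in both, Pola1 was higher in P95H, and the other 6 were not called.

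Signals are given as deposited, on a scale like TPM (transcripts scaled by length and library), and fold changes are differences of log2(signal + 1) between group means, with adjusted p-values from limma over the 10890 entries. A gene is called where the adjusted p is under 0.05. Library sums ran between 924763 and 1085047, and read depth per value is unknown because the table has no counts. The factor that scaled each library lay between 0.940 and 0.984 (median 0.944) in P95H PHZ and between 0.984 and 1.10 (median 1.02) in P95H PBS. It lay between 0.964 and 1.04 (median 0.991) in Mx1-Cre PHZ and between 1.01 and 1.08 (median 1.01) in Mx1-Cre PBS. Statements below that the signals of groups do or do not overlap are of the values as deposited and can change with the scaling. Erythroid genes marked every library, with Klf1 at 288 to 404, Gata1 at 171 to 247 and Epor at 126 to 165, and of 13 CFU-E markers 2 were higher and 6 lower after PHZ in P95H, and 2 higher and 4 lower in Mx1-Cre. Kit, the gene of the sorted receptor, was among the lower ones. It had 40.9 to 71.9 in P95H PHZ and 73.9 to 107 in P95H PBS, and 54.8 to 67.7 in Mx1-Cre PHZ and 87.7 to 155 in Mx1-Cre PBS, with no overlap in either genotype. The summed signal of 18 granulocyte and monocyte markers, which the sort should leave out, was 153 to 578 in P95H PHZ and 539 to 2377 in P95H PBS, and 146 to 1046 in Mx1-Cre PHZ and 438 to 926 in Mx1-Cre PBS. Of the 13 that passed the filter, 13 were called lower after PHZ in P95H (median log2 fold change -1.86) and 1 in Mx1-Cre (median -0.95). None of the 18 was listed at 0 in every library. The summed signal of 9 stem and early progenitor markers was 96.5 to 143 in P95H PHZ and 174 to 205 in P95H PBS, and 122 to 153 in Mx1-Cre PHZ and 191 to 269 in Mx1-Cre PBS, and 2 of the 3 that passed the filter were lower in each genotype. Of 2 lymphoid markers that passed, 2 were lower in P95H and 1 in Mx1-Cre, and of 3 megakaryocyte markers 1 was lower in P95H and 2 in Mx1-Cre. The part of these cells in the results was not tested. In sorted populations sequenced in bulk, fewer cells of a type and less RNA per cell cannot be told apart.

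All 44 genes were expressed in CFU-E of all 4 groups, with single values between 16.5 (Gins3) and 1292 (Pcna). Pcna, which encodes the sliding clamp, was the highest of the 44 with a mean signal of 1073 over the 20 libraries, and Gins3, a subunit of the GINS complex, was the lowest at 19.4. Signals of this kind are scaled per transcript length, so genes can be set beside each other. Rrm1 (569), the large subunit of ribonucleotide reductase, and Mcm7 (544) came next. The 6 subunits of the MCM2-7 hexamer, which act in equal numbers, spanned 1.93 fold in mean signal (Mcm4 282 to Mcm7 544), and the 3 subunits of the single-strand binding protein RPA spanned 1.21 fold (Rpa3 160.4 to Rpa2 193). The 6 ORC genes spread more widely, 4.29 fold (Orc4 36.1 to Orc6 155), as did the 4 GINS genes at 4.39 fold (Gins3 19.4 to Gins1 85.3). The 5 RFC genes spanned 2.30 fold (Rfc1 70.3 to Rfc4 162), and the 8 polymerase and primase genes 2.66 fold (Pole2 50.7 to Pola2 135). Neighbours in this order often overlapped between libraries, and the order of 2 genes close in mean is not resolved here.

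**Figure D1:**
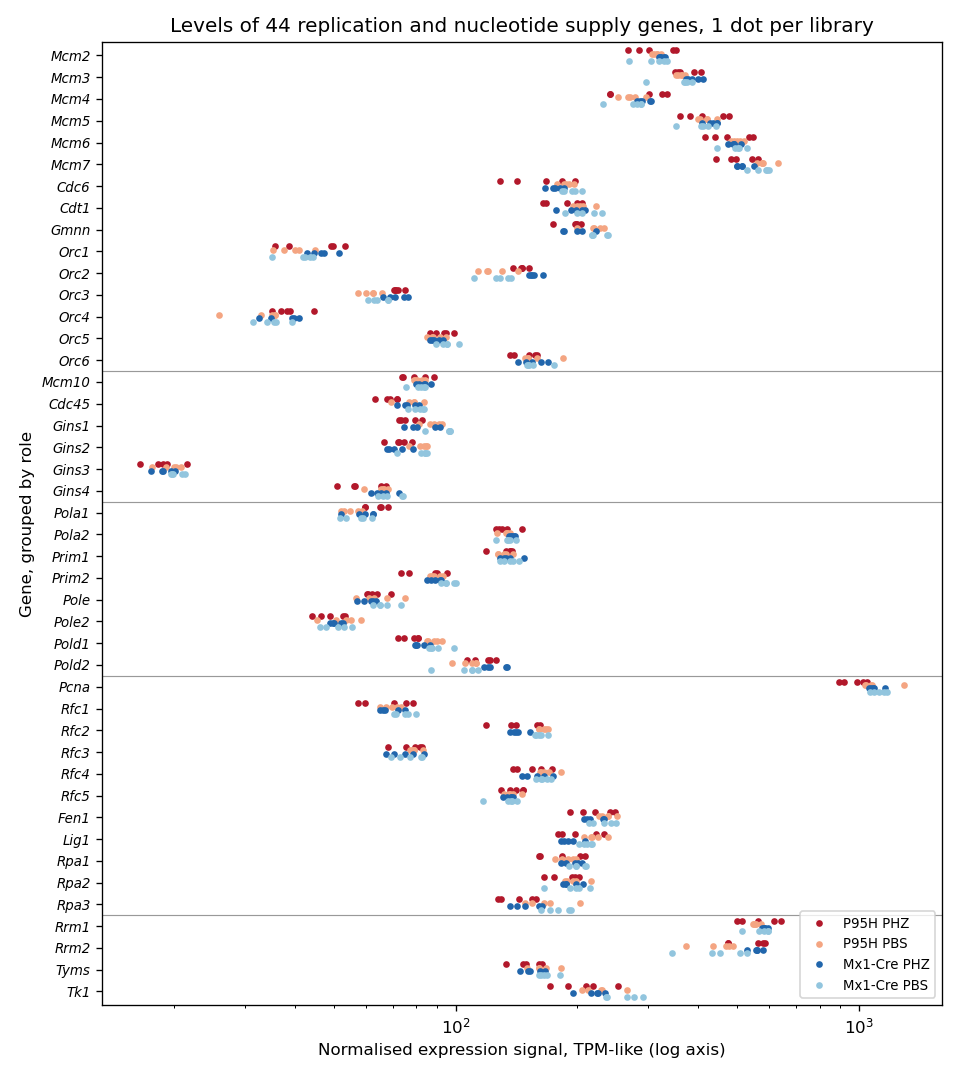
Signal of each of the 44 genes in each of 20 libraries (log axis, TPM-like units), 1 dot per library, coloured by group and grouped by role. Genes span from about 19.4 (Gins3) to 1073 (Pcna) in mean signal, and the 4 groups lie close together for nearly every gene.

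PHZ changed a share of these genes close to the share of all entries, and by small amounts. In P95H, PHZ against PBS, 5 of the 44 were higher (Rrm2, Orc4, Orc3, Orc2 and Pola1), 9 were lower (Rpa3, Mcm7, Rfc2, Gins1, Pold1, Pcna, Gins2, Gmnn and Cdc45) and 30 were not called. That is 31.8% of the genes, beside 30.2% of all entries tested (3294 of 10890). Higher calls made up 12.6% of all entries and lower calls 17.7%, against 11.4% and 20.5% of the 44. The median log2 fold change of the 44 was -0.06, against -0.02 over all entries, and all 44 lay between -0.24 and 0.25. The median absolute log2 fold change was 0.12 for the 44 and 0.14 for all entries.

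In Mx1-Cre, PHZ against PBS, 4 genes were higher (Rrm2, Orc2, Pold2 and Orc3), 8 were lower (Rpa3, Tk1, Gins1, Rfc2, Gmnn, Gins2, Mcm7 and Pold1) and 32 were not called. This is 27.3% of the 44, beside 31.9% of all entries (3474 of 10890). Higher calls made up 17.0% of all entries and lower calls 14.9%, against 9.09% and 18.2% of the 44. The median log2 fold change of the 44 was -0.04, against -0.00 over all entries, and the range was -0.26 to 0.31. The median absolute change was 0.09 for the 44 and 0.15 for all entries.

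The comparisons in the 2 genotypes share no library, but the fit took 1 spread per gene from all 20 libraries. Calls in the 2 genotypes are therefore not fully independent. In both, 10 genes were called in the same direction, Orc2, Orc3 and Rrm2 higher and Mcm7, Gmnn, Gins1, Gins2, Pold1, Rfc2 and Rpa3 lower. These 10 are 71.4% of the 14 called in P95H and 83.3% of the 12 called in Mx1-Cre, and the shares over all entries were 66.9% and 63.4%. The sign of the fold change was the same in both genotypes for 38 of the 44 (86.4%), against 79.3% of all entries. No gene was called in opposite directions.

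The lower calls depend on the scaling in either genotype. With the authors' factor divided out of each library, 0 of the 44 were lower and 7 higher in P95H, and 1 was lower in Mx1-Cre (Rpa3). Of all 10890 entries, 1117 were then lower and 2575 higher in P95H, and 1219 were lower in Mx1-Cre. The median over all entries was 0.08 in P95H and 0.04 in Mx1-Cre. The median of the 44 then turned positive, to 0.05 in P95H and 0.0033 in Mx1-Cre. Quantile normalization ended the P95H calls of Mcm7 and Pcna and the Mx1-Cre call of Orc3. Scaling by trimmed means of log ratios (TMM) ended the P95H call of Rrm2 and the Mx1-Cre calls of Mcm7 and Pold1 (adjusted p = 0.0570 to 0.0735). No called gene changed direction under any scaling tried. Calls were also lost with the granulocyte and monocyte markers in the model. With the mean of those markers as a covariate, 0 were higher and 1 lower in P95H (Pold1), beside 8.73% of all entries called, and 2 were higher (Orc2 and Pold2) and 0 lower in Mx1-Cre, beside 21.6% of all entries called. Some log2 fold changes were about as large with the covariate, such as those of Cdc45 (-0.18), Gins1 (-0.18), Pcna (-0.16) and Rpa3 (-0.22) in P95H and of Pold1 (-0.15), Gins1 (-0.18) and Rpa3 (-0.25) in Mx1-Cre. Others were smaller, such as those of Orc4 (0.06), Pola1 (0.07) and Gmnn (-0.06) in P95H. The median of the 44 was 0.01 in P95H and -0.02 in Mx1-Cre with the covariate. The part of these markers in the changes was not tested beyond this covariate. Without P95H PBS replicates 4 and 5, which had the highest marker levels and were left out after the data had been seen, 1 was higher and 4 were lower in P95H, beside 19.3% of all entries. Leaving out P95H PHZ replicate 2, whose replication genes were low as a set, left 3 lower calls in P95H, beside 1621 of 10860 entries. Leaving out P95H PHZ replicate 5 gave 14, beside 1969 of 10872 entries, with Cdc6, Cdt1, Gins4, Rfc4 and Lig1 added. The higher calls in P95H went to 3 without any 1 of P95H PHZ replicates 3 and 5, P95H PBS replicates 4 and 5, Mx1-Cre PHZ replicates 1, 2, 3 and 4 or Mx1-Cre PBS replicate 5. Leaving out a library of the other genotype does not change a fold change. It moves only the spread, which all groups share, and the adjustment. In Mx1-Cre the higher calls went to 2 without Mx1-Cre PBS replicate 4. The lower calls in Mx1-Cre went to 5 without Mx1-Cre PHZ replicate 1 or Mx1-Cre PBS replicate 1 or 2, to 3 without Mx1-Cre PHZ replicate 4, to 2 without Mx1-Cre PHZ replicate 2 or Mx1-Cre PBS replicate 3, and to 1 without Mx1-Cre PHZ replicate 3.

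**Figure D2:**
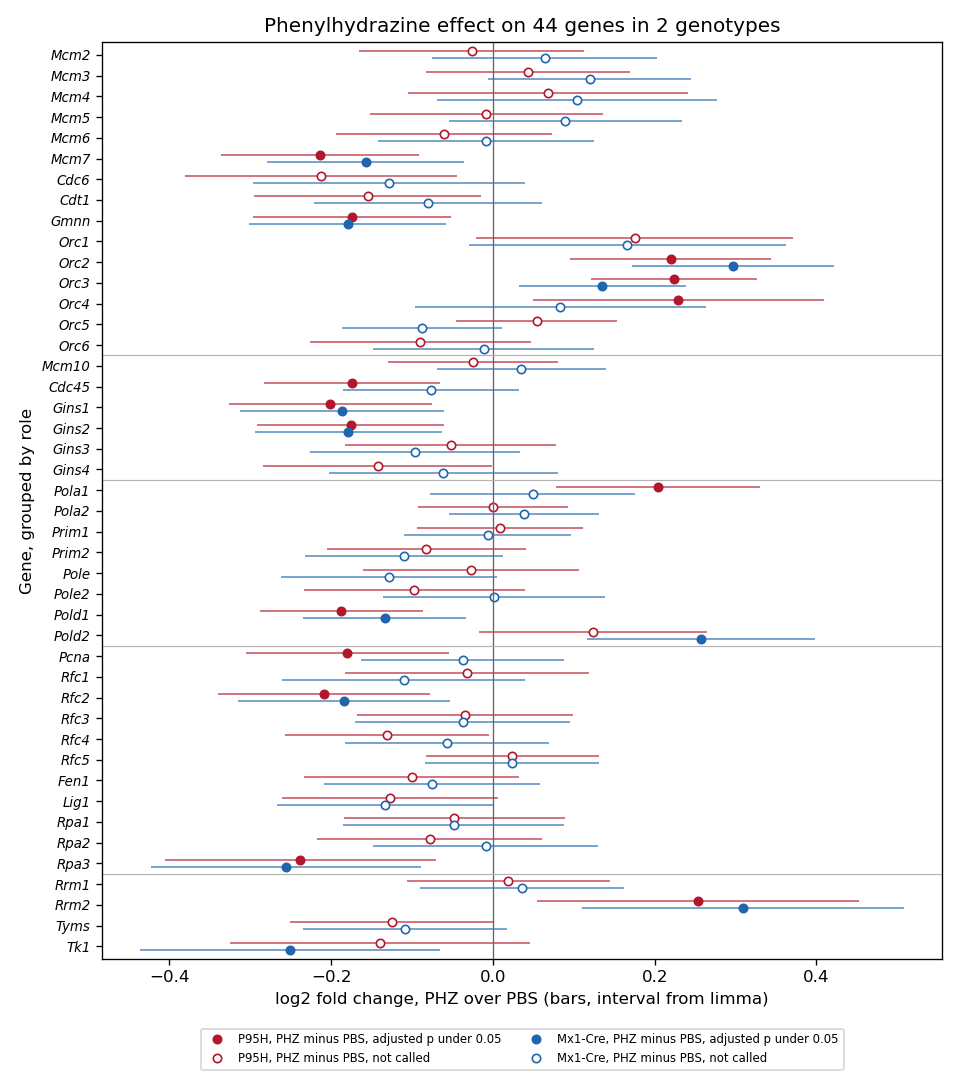
Log2 fold change of each gene after PHZ, in P95H and in Mx1-Cre, with bars for the 95% interval. All values lie within -0.26 and 0.31, Rrm2, Orc2 and Orc3 are above 0 and called in both genotypes, and 7 genes from Mcm7 to Rpa3 are below 0 and called in both.

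Of the 6 MCM helicase subunits, Mcm2 to Mcm6 were not called after PHZ in either genotype under any scaling tried, and Mcm7 was lower in both with the values as deposited. The P95H call of Mcm7 was lost after removing the deposited library factor (adjusted p = 0.180), under quantile normalization (adjusted p = 0.0594) and with the marker covariate (adjusted p = 0.438). Its Mx1-Cre call was lost after removing the factor (adjusted p = 0.177), under TMM scaling (adjusted p = 0.0698), with no filter (adjusted p = 0.0699) and with the marker covariate (adjusted p = 0.253). Libraries are listed in the order of their replicate numbers. Mcm2 (ENSMUSG00000002870, chr6:88883474-88898780, minus strand) had signals of 351, 268, 302, 285 and 346 in the P95H PHZ libraries, against 307, 316, 324, 309.6 and 316 in the P95H PBS libraries. In Mx1-Cre mice it had 330.1, 319.8, 321, 324 and 329 in the Mx1-Cre PHZ libraries, against 329, 319, 334, 269 and 306 in the Mx1-Cre PBS libraries. The groups overlapped in both genotypes, and neither difference was called (log2 change -0.03, SE 0.0669 in P95H and log2 change 0.06, SE 0.0669 in Mx1-Cre).

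Mcm3 (chr1:20802968-20820312, minus strand) had 405, 349, 357, 360.1 and 389.6 in the P95H PHZ libraries, against 370.3, 353, 355, 364 and 362 in the P95H PBS libraries. Its Mx1-Cre values were 372, 386, 411, 376 and 399 in the Mx1-Cre PHZ libraries, against 369.7, 386, 369, 297 and 374 in the Mx1-Cre PBS libraries. The lowest of these values, 297, came from Mx1-Cre PBS replicate 4. Neither PHZ difference was called (log2 change 0.04, SE 0.0607 in P95H and log2 change 0.12, SE 0.0607 in Mx1-Cre). Mcm4, which with Mcm6 and Mcm7 forms the subcomplex that has helicase activity by itself, lies at chr16:15623897-15637400, minus strand. Its signals were 325, 242, 302, 242 and 335 in the P95H PHZ libraries, against 268, 279, 297, 253 and 270.3 in the P95H PBS libraries. In Mx1-Cre mice they were 305, 289, 282, 303 and 286 in the Mx1-Cre PHZ libraries, against 289, 275, 289, 232 and 282 in the Mx1-Cre PBS libraries. P95H PHZ replicates 2 and 4 had the lowest and replicates 1 and 5 the highest values of their group, and the groups overlapped (log2 change 0.07, SE 0.0834 in P95H and log2 change 0.10, SE 0.0834 in Mx1-Cre, neither called).

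Mcm5 (chr8:75109569-75128439, plus strand), whose promoter is printed above, forms with Mcm2, in yeast and fly, the gate of the ring that opens for DNA. It had 475, 360.0, 409, 381 and 461 in the P95H PHZ libraries, against 399, 421, 444, 403 and 421 in the P95H PBS libraries. The Mx1-Cre values were 445, 408, 427, 444 and 434 in the Mx1-Cre PHZ libraries, against 423, 405, 442, 353 and 409.6 in the Mx1-Cre PBS libraries. The spread inside P95H PHZ exceeded the difference between the groups (log2 change -0.01, SE 0.0694 in P95H and log2 change 0.09, SE 0.0694 in Mx1-Cre, neither called). Mcm6 (chr1:128331590-128359664, minus strand) had 545, 415, 472, 439 and 535 in the P95H PHZ libraries, against 481, 489.9, 499, 520.4 and 508 in the P95H PBS libraries. For the control genotype the values were 487, 475, 489.9, 491 and 509 in the Mx1-Cre PHZ libraries, against 504, 493, 528, 444 and 502 in the Mx1-Cre PBS libraries. The groups overlapped here too (log2 change -0.06, SE 0.0643 in P95H and log2 change -0.01, SE 0.0643 in Mx1-Cre, neither called). For Mcm2 to Mcm6 the 95% intervals of the log2 fold change together ran from -0.19 to 0.24 in P95H and from -0.14 to 0.28 in Mx1-Cre.

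Mcm7 (ENSMUSG00000029730, chr5:138164583-138172422, minus strand) fell after PHZ in both genotypes. Its signals were 563, 443, 495, 480.5 and 543 in the P95H PHZ libraries, against 579, 576, 574, 629 and 559 in the P95H PBS libraries. In Mx1-Cre mice they were 514, 498, 512, 498 and 551 in the Mx1-Cre PHZ libraries, against 590.1, 563, 587, 529 and 599.8 in the Mx1-Cre PBS libraries. Only P95H PHZ replicate 1 reached the range of P95H PBS, and in Mx1-Cre replicate 5 after PHZ lay above PBS replicate 4. The fall was past the threshold in P95H (log2 change of -0.21 with SE 0.0587, adjusted p = 0.00847) and in Mx1-Cre (log2 change of -0.16 with SE 0.0587, adjusted p = 0.0451). The Mx1-Cre call was lost without any 1 of P95H PHZ replicate 3, P95H PBS replicates 2, 3 and 5, Mx1-Cre PHZ replicates 1, 2, 3 and 4 or Mx1-Cre PBS replicates 1, 2, 3 and 5 (adjusted p = 0.0507 to 0.0957). Cops6 and Ap4m1 overlap Mcm7 on the opposite strand, and the sources used here do not say if counting used strand.

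Of the licensing factors that act with ORC, Gmnn, which encodes the CDT1 inhibitor geminin, was lower after PHZ in both genotypes. Cdc6 and Cdt1 were not called, except in P95H in the alternatives given below. Gmnn averaged 195 ± 12.0 in P95H PHZ and 220.2 ± 12.7 in P95H PBS (log2 change of -0.17 with SE 0.0588, adjusted p = 0.0285; SD, n = 5 each). It averaged 199.8 ± 15.9 in Mx1-Cre PHZ and 226 ± 10.9 in Mx1-Cre PBS (log2 change of -0.18 with SE 0.0588, adjusted p = 0.0237). The P95H call was lost without any 1 of P95H PHZ replicate 2 or P95H PBS replicates 1, 4 and 5 (adjusted p = 0.0524 to 0.0941), and the Mx1-Cre call without any 1 of Mx1-Cre PHZ replicates 2 and 3 or Mx1-Cre PBS replicates 3 and 5 (adjusted p = 0.0567 to 0.0726). Cdc6, the ATPase that completes the ring around DNA with ORC, averaged 164 ± 28.3 in P95H PHZ and 188 ± 6.78 in P95H PBS (log2 change of -0.21 with SE 0.0810, adjusted p = 0.0512). Its lowest values, 129 and 142, were those of P95H PHZ replicates 2 and 4. Cdt1, the helicase loader, averaged 185 ± 18.4 in P95H PHZ and 206 ± 10.5 in P95H PBS (log2 change of -0.15 with SE 0.0676, adjusted p = 0.0880). In P95H Cdc6 was called lower with the filter at 5 (adjusted p = 0.0480) and without P95H PHZ replicate 1 (adjusted p = 0.0242) or 5 (adjusted p = 0.00602). Cdt1 was called lower there without P95H PHZ replicate 5 (adjusted p = 0.0364). In Mx1-Cre neither was called, Cdc6 with log2 change -0.13, SE 0.0810 and Cdt1 with log2 change -0.08, SE 0.0676.

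Among the 6 ORC genes, Orc2 and Orc3 were higher after PHZ in both genotypes (Orc3 not in Mx1-Cre under quantile normalization, adjusted p = 0.235), Orc4 was higher in P95H, and none was called lower with the values as deposited. Orc2 (ENSMUSG00000026037, chr1:58462771-58505109, minus strand), a core subunit of the origin-binding complex, had 152, 145, 146, 139 and 146 in the P95H PHZ libraries, against 143, 119, 130.2, 114 and 121 in the P95H PBS libraries. In Mx1-Cre mice it had 165, 154, 152, 156 and 155 in the Mx1-Cre PHZ libraries, against 129, 137, 135, 111 and 126 in the Mx1-Cre PBS libraries. In Mx1-Cre all 5 PHZ libraries lay above every PBS library, and in P95H only PBS replicate 1 reached the PHZ range. Orc2 rose by 1.16 fold in P95H (log2 change of 0.22 with SE 0.0601, adjusted p = 0.00816) and by 1.23 fold in Mx1-Cre (log2 change of 0.30 with SE 0.0601, adjusted p = 0.000827). Neither call depended on a single library, and the Mx1-Cre call was kept in all 31 alternatives tried. Nif3l1 overlaps it on the opposite strand. Of all entries tested, 7.59% had every PHZ library above every PBS library in P95H and 12.6% in Mx1-Cre, and 10.0% and 9.82% had every PHZ library below.

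Orc3 (chr4:34570796-34614944, minus strand), another core subunit, had 71.2, 70.7, 75.0, 72.2 and 70.5 in the P95H PHZ libraries, against 62.3, 62.3, 65.6, 57.2 and 59.9 in the P95H PBS libraries. Its Mx1-Cre values were 74.3, 70.7, 66.0, 76.2 and 68.9 in the Mx1-Cre PHZ libraries, against 68.0, 62.9, 68.2, 60.7 and 63.8 in the Mx1-Cre PBS libraries. All 5 PHZ libraries lay above every PBS library in P95H, while the Mx1-Cre groups overlapped. The change was 1.17 fold in P95H (log2 change of 0.22 with SE 0.0495, adjusted p = 0.00163) and 1.10 fold in Mx1-Cre (log2 change of 0.14 with SE 0.0495, adjusted p = 0.0406). The Mx1-Cre call was lost without any 1 of Mx1-Cre PHZ replicates 1, 2 and 4 or Mx1-Cre PBS replicates 2, 4 and 5 (adjusted p = 0.0608 to 0.119). Orc4 (chr2:48902824-48950277, minus strand), an ATPase-fold subunit, had 35.1, 36.9, 44.7, 38.9 and 38.3 in the P95H PHZ libraries, against 35.0, 35.6, 35.7, 25.9 and 32.9 in the P95H PBS libraries. The Mx1-Cre values were 39.8, 40.9, 34.9, 39.4 and 32.5 in the Mx1-Cre PHZ libraries, against 31.5, 39.3, 35.5, 35.9 and 34.2 in the Mx1-Cre PBS libraries. P95H PBS replicate 4, at 25.9, was the lowest of the 20 libraries. Orc4 was called in P95H (log2 change of 0.23 with SE 0.0865, adjusted p = 0.0489) and not in Mx1-Cre (log2 change of 0.08 with SE 0.0865, adjusted p = 0.497). The P95H call was lost without any 1 of P95H PHZ replicates 2, 3, 4 and 5, P95H PBS replicates 4 and 5, Mx1-Cre PHZ replicates 1, 2, 3 and 4 or Mx1-Cre PBS replicates 3, 4 and 5 (adjusted p = 0.0503 to 0.162).

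The other ORC genes were not called, except in the alternatives given at the end of this paragraph. Orc5 (chr5:22486485-22550429, minus strand) had 89.5, 86.2, 99.4, 93.8 and 94.9 in the P95H PHZ libraries, against 94.7, 87.2, 84.9, 87.9 and 91.7 in the P95H PBS libraries. For the control genotype the values were 93.2, 87.2, 86.3, 88.6 and 90.8 in the Mx1-Cre PHZ libraries, against 93.3, 95.1, 95, 102 and 89.3 in the Mx1-Cre PBS libraries. The values overlapped in both genotypes (log2 change 0.05, SE 0.0477 in P95H and log2 change -0.09, SE 0.0477 in Mx1-Cre). Orc1, the ATPase that starts helicase loading, averaged 45.3 ± 7.67 in P95H PHZ and 39.7 ± 3.58 in P95H PBS (log2 change of 0.18 with SE 0.0944, adjusted p = 0.168), and 46.5 ± 3.27 in Mx1-Cre PHZ and 41.4 ± 3.67 in Mx1-Cre PBS (log2 change of 0.17 with SE 0.0944, adjusted p = 0.191). Orc6 averaged 149 ± 10.5 in P95H PHZ and 159 ± 14.7 in P95H PBS (log2 change of -0.09 with SE 0.0657, adjusted p = 0.321), and in Mx1-Cre it was not called (log2 change -0.01, SE 0.0657). Orc5 moved with the scaling and was called lower in Mx1-Cre under quantile normalization (adjusted p = 0.0222) and higher in P95H once each library's deposited factor was removed (adjusted p = 0.0120). Orc1 was called higher in P95H without P95H PHZ replicate 4 (adjusted p = 0.0326).

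None of the 6 genes that activate the helicase was called higher after PHZ. In all, 3 of the 6 were called lower in P95H (Gins1, Gins2 and Cdc45) and 2 in Mx1-Cre (Gins1 and Gins2), beside 17.7% of all entries called lower in P95H and 14.9% in Mx1-Cre. Gins1 (ENSMUSG00000027454, chr2:150905400-150931280, plus strand), a GINS subunit, had 82.7, 75.0, 73.1, 72.2 and 79.3 in the P95H PHZ libraries, against 92.7, 91.1, 81.3, 88.5 and 86.4 in the P95H PBS libraries. In Mx1-Cre mice it had 89.0, 74.3, 78.5, 80.3 and 91.3 in the Mx1-Cre PHZ libraries, against 96.6, 97.1, 96.6, 84.1 and 96.1 in the Mx1-Cre PBS libraries. In P95H the ranges overlapped only through PHZ replicate 1 at 82.7 against PBS replicate 3 at 81.3. Gins1 fell in P95H (log2 change of -0.20 with SE 0.0605, adjusted p = 0.0153) and in Mx1-Cre (log2 change of -0.19 with SE 0.0605, adjusted p = 0.0227), and the Mx1-Cre call was lost without any 1 of Mx1-Cre PHZ replicates 2, 3 and 4 (adjusted p = 0.0508 to 0.0725).

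Gins2 averaged 72.7 ± 4.20 in P95H PHZ and 82.2 ± 3.33 in P95H PBS (log2 change of -0.18 with SE 0.0557, adjusted p = 0.0204; SD, n = 5 each). In Mx1-Cre it averaged 71.7 ± 4.37 in Mx1-Cre PHZ and 81.3 ± 5.43 in Mx1-Cre PBS (log2 change of -0.18 with SE 0.0557, adjusted p = 0.0179). The P95H call was lost without P95H PHZ replicate 2 (adjusted p = 0.0650). Gse1 overlaps Gins2 on the opposite strand. Cdc45 (ENSMUSG00000000028, chr16:18780447-18811987, minus strand), which joins GINS on the MCM ring, had 71.6, 63.0, 68.9, 67.5 and 71.5 in the P95H PHZ libraries, against 83.4, 79.0, 76.7, 69.3 and 78.7 in the P95H PBS libraries. Its Mx1-Cre values were 81.0, 76.0, 71.5, 74.9 and 79.3 in the Mx1-Cre PHZ libraries, against 83.7, 79.1, 83.0, 76.4 and 81.4 in the Mx1-Cre PBS libraries. It was called in P95H (log2 change of -0.17 with SE 0.0524, adjusted p = 0.0153), a call lost without P95H PHZ replicate 2 (adjusted p = 0.0506), and not in Mx1-Cre (log2 change of -0.08 with SE 0.0524, adjusted p = 0.283). Ufd1 overlaps Cdc45 on the opposite strand.

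Gins4 (chr8:23226616-23237659, minus strand), another GINS subunit, had 65.2, 56.2, 56.0, 50.9 and 67.3 in the P95H PHZ libraries, against 68.2, 66.6, 66.1, 59.3 and 65.2 in the P95H PBS libraries. The Mx1-Cre values were 65.3, 64.0, 61.8, 67.4 and 72.3 in the Mx1-Cre PHZ libraries, against 64.2, 66.2, 73.5, 73.9 and 67.5 in the Mx1-Cre PBS libraries. P95H PHZ replicate 4 was the lowest of the 20, and no PHZ difference was called (log2 change -0.14, SE 0.0683 in P95H and log2 change -0.06, SE 0.0683 in Mx1-Cre). Gins3 and Mcm10, a factor needed for origin firing, were not called in either genotype. Gins3 had a log2 change -0.05, SE 0.0627 in P95H and a log2 change -0.10, SE 0.0627 in Mx1-Cre, and Mcm10 had a log2 change -0.02, SE 0.0503 in P95H and a log2 change 0.03, SE 0.0503 in Mx1-Cre.

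Among subunits of polymerase delta, the lagging-strand polymerase, Pold1 was lower after PHZ in both genotypes and Pold2 was higher in Mx1-Cre. The subunit genes Pold3 and Pold4 were also measured but are outside the genes chosen here. Pold3 averaged 75.2 in P95H PHZ and 78.0 in P95H PBS, and 75.5 in Mx1-Cre PHZ and 80.2 in Mx1-Cre PBS. Pold4 averaged 7.62 in P95H PHZ and 8.10 in P95H PBS, and 6.02 in Mx1-Cre PHZ and 7.52 in Mx1-Cre PBS. For both, the treatments overlapped in each genotype. Pold1, the catalytic subunit (ENSMUSG00000038644, chr7:44532746-44548849, minus strand), averaged 77.3 ± 3.92 in P95H PHZ and 88.1 ± 3.15 in P95H PBS (log2 change of -0.19 with SE 0.0485, adjusted p = 0.00549; SD, n = 5 each), and all 5 P95H PHZ libraries lay below every P95H PBS library. This separation depends on the scaling, as P95H PHZ replicate 1 (80.8) had a factor of 0.962 and P95H PBS replicate 1 (85.3) a factor of 1.10. In Mx1-Cre Pold1 averaged 81.8 ± 3.05 in Mx1-Cre PHZ and 89.9 ± 5.34 in Mx1-Cre PBS (log2 change of -0.13 with SE 0.0485, adjusted p = 0.0392), a call lost without any 1 of Mx1-Cre PHZ replicates 2, 3, 4 and 5 or Mx1-Cre PBS replicates 1 and 3 (adjusted p = 0.0549 to 0.126). Pold2 (ENSMUSG00000020471, chr11:5872180-5878292, minus strand), an accessory subunit, had 120.3, 122, 112, 126 and 107 in the P95H PHZ libraries, against 112, 97.8, 112, 106 and 109.9 in the P95H PBS libraries. For the control genotype the values were 121, 120.2, 134, 118 and 134 in the Mx1-Cre PHZ libraries, against 114, 110.0, 105, 86.8 and 110.0 in the Mx1-Cre PBS libraries. All 5 Mx1-Cre PHZ libraries lay above every Mx1-Cre PBS library, and the P95H groups overlapped. Pold2 rose by 1.2 fold in Mx1-Cre (log2 change of 0.26 with SE 0.0678, adjusted p = 0.00638), a call kept in all 31 alternatives, and was not called in P95H (log2 change of 0.12 with SE 0.0678, adjusted p = 0.173) except once the library factor was removed (adjusted p = 0.0170).

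Pola1 (ENSMUSG00000006678, chrX:93304767-93632155, minus strand), the catalytic subunit of polymerase alpha whose promoter is printed above, had 65.0, 59.6, 68.1, 59.8 and 65.5 in the P95H PHZ libraries, against 54.7, 58.5, 57.3, 52.9 and 51.9 in the P95H PBS libraries. All 5 P95H PHZ libraries lay above every P95H PBS library (log2 change of 0.20 with SE 0.0608, adjusted p = 0.0143). The Mx1-Cre values were 62.3, 62.5, 59.6, 57.7 and 51.9 in the Mx1-Cre PHZ libraries, against 58.1, 58.8, 62.0, 53.5 and 51.6 in the Mx1-Cre PBS libraries. These overlapped, and Pola1 was not called (log2 change of 0.05 with SE 0.0608, adjusted p = 0.579). The difference between the genotypes in this effect was not called either (interaction, log2 change 0.15, SE 0.0860, adjusted p = 0.798). Prim2 (chr1:33453810-33669795, minus strand), the large primase subunit, had 90.1, 73.2, 89.0, 76.5 and 95 in the P95H PHZ libraries, against 86.3, 87.4, 91.7, 93.1 and 88.4 in the P95H PBS libraries. In Mx1-Cre mice it had 92.2, 88.9, 85.2, 86.9 and 91.5 in the Mx1-Cre PHZ libraries, against 100.4, 91.9, 99.0, 94.5 and 94.5 in the Mx1-Cre PBS libraries. Its values overlapped in both genotypes (log2 change -0.08, SE 0.0591 in P95H and log2 change -0.11, SE 0.0591 in Mx1-Cre). Pola2, Prim1 (the catalytic primase subunit), Pole (the leading-strand polymerase) and Pole2 were not called in either genotype, with log2 fold changes of 0.00, 0.01, -0.03 and -0.10 in P95H and 0.04, -0.01, -0.13 and 0.00 in Mx1-Cre.

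**Figure D3:**
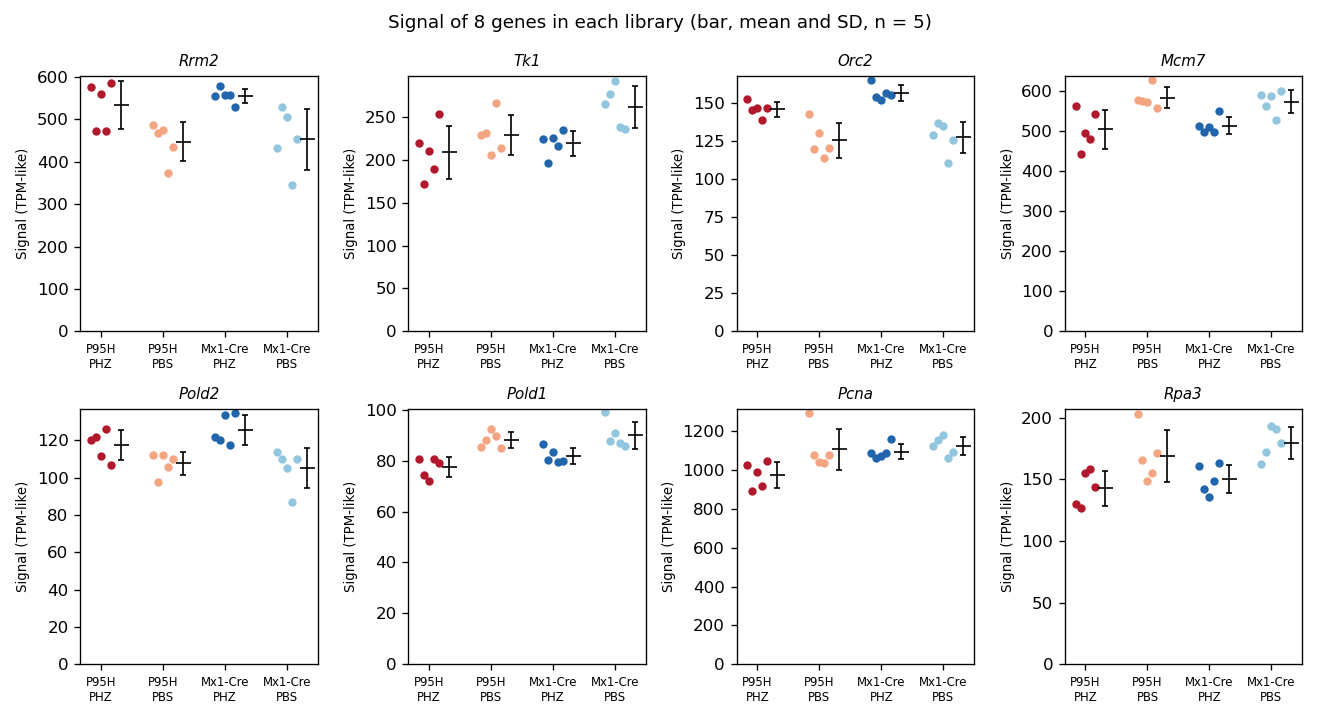
Signal of 8 genes in each library (TPM-like units), with the mean and SD of each group of 5 beside the dots. Rrm2 and Orc2 sit higher after PHZ in both genotypes, and Pold1, Mcm7 and Rpa3 sit lower. With the values as deposited, the 2 genotypes overlap within each treatment except for Pcna after PHZ, where the separation depends on the scaling.

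Among the 11 genes of the clamp, its loader, RPA and Okazaki fragment joining, Rfc2 and Rpa3 were lower after PHZ in both genotypes, Pcna was lower in P95H, and none was called higher. Pcna (ENSMUSG00000027342, chr2:132249162-132253314, minus strand) had 1025, 891, 989, 917 and 1046 in the P95H PHZ libraries, against 1292, 1074, 1042, 1037 and 1078 in the P95H PBS libraries. Its Mx1-Cre values were 1087, 1061, 1070.2, 1086 and 1159.7 in the Mx1-Cre PHZ libraries, against 1121, 1154, 1177, 1063 and 1093 in the Mx1-Cre PBS libraries. P95H PHZ replicate 5 and P95H PBS replicates 3 and 4 made the P95H groups overlap, and P95H PBS replicate 1 was the highest of all 20. Pcna was called in P95H (log2 change of -0.18 with SE 0.0604, adjusted p = 0.0279) and not in Mx1-Cre (log2 change of -0.04 with SE 0.0604, adjusted p = 0.677), and the P95H call was lost without any 1 of P95H PHZ replicates 2 and 4 or P95H PBS replicate 1 (adjusted p = 0.0676 to 0.0890). The annotated copies Pcna-ps1 and Pcna-ps2 had mean signals of 0 and 0.122.

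Rfc2 (ENSMUSG00000023104, chr5:134581366-134601805, plus strand), a clamp loader subunit, had 159, 119, 137, 141 and 162 in the P95H PHZ libraries, against 168, 166, 161, 161 and 169.6 in the P95H PBS libraries. The Mx1-Cre values were 141, 136, 139, 142 and 153 in the Mx1-Cre PHZ libraries, against 161, 163, 169.9, 157 and 158 in the Mx1-Cre PBS libraries. All 5 Mx1-Cre PHZ libraries lay below every Mx1-Cre PBS library, and in P95H only PHZ replicate 5 reached the PBS range. Rfc2 fell in P95H (log2 change of -0.21 with SE 0.0631, adjusted p = 0.0156) and in Mx1-Cre (log2 change of -0.18 with SE 0.0631, adjusted p = 0.0295). The P95H call was lost without P95H PHZ replicate 2 (adjusted p = 0.0513), and the Mx1-Cre call without any 1 of Mx1-Cre PHZ replicates 1, 2, 3 and 4 or Mx1-Cre PBS replicates 2 and 3 (adjusted p = 0.0505 to 0.0702). Rfc1, Rfc3, Rfc4 and Rfc5 were not called in either genotype, with log2 fold changes between -0.13 and 0.02.

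Rpa3 (ENSMUSG00000012483, chr6:8255936-8259173, minus strand), the smallest subunit of the single-strand binding protein RPA, had the lowest fold change of the 44 in both genotypes. Its signals were 129.8, 127, 155, 158 and 144 in the P95H PHZ libraries, against 203, 166, 149, 155 and 171 in the P95H PBS libraries. In Mx1-Cre mice they were 161, 142, 136, 149 and 163 in the Mx1-Cre PHZ libraries, against 162, 172, 193, 191 and 179 in the Mx1-Cre PBS libraries. The groups overlapped in both genotypes, and P95H PBS replicate 1 was the highest of the 20. Rpa3 was 0.848 of its PBS level in P95H (log2 change of -0.24 with SE 0.0806, adjusted p = 0.0290) and 0.838 of it in Mx1-Cre (log2 change of -0.26 with SE 0.0806, adjusted p = 0.0193). The P95H call was lost without any 1 of P95H PHZ replicates 1 and 2 or P95H PBS replicates 1 and 5 (adjusted p = 0.0596 to 0.0968), and the Mx1-Cre call without any 1 of Mx1-Cre PHZ replicate 3 or Mx1-Cre PBS replicates 3 and 4 (adjusted p = 0.0513 to 0.0608). The larger subunits Rpa1 and Rpa2 were not called (log2 change -0.05, SE 0.0659 and log2 change -0.08, SE 0.0670 in P95H, log2 change -0.05, SE 0.0659 and log2 change -0.01, SE 0.0670 in Mx1-Cre). Fen1, the nuclease that trims Okazaki fragments, and Lig1, the ligase that joins them, were not called either (log2 change -0.10, SE 0.0642 and log2 change -0.13, SE 0.0643 in P95H, log2 change -0.07, SE 0.0642 and log2 change -0.13, SE 0.0643 in Mx1-Cre).

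Rrm2, the small subunit of ribonucleotide reductase that limits its activity in S phase, had the highest fold change of the 44 after PHZ in both genotypes. Rrm2 (ENSMUSG00000020649, chr12:24708241-24714146, plus strand) had signals of 578, 474, 561, 473 and 585 in the P95H PHZ libraries, against 487, 467, 476, 373 and 436 in the P95H PBS libraries. For the control genotype the values were 555, 578, 558, 558 and 529 in the Mx1-Cre PHZ libraries, against 432, 528, 506, 344 and 453 in the Mx1-Cre PBS libraries. All 5 Mx1-Cre PHZ libraries lay above every Mx1-Cre PBS library, though PHZ replicate 5 and PBS replicate 2 nearly met, while P95H PHZ replicates 2 and 4 lay within the P95H PBS range. Rrm2 rose by 1.19 fold in P95H (log2 change of 0.25 with SE 0.0957, adjusted p = 0.0492) and by 1.24 fold in Mx1-Cre (log2 change of 0.31 with SE 0.0957, adjusted p = 0.0174). The P95H call was lost without any 1 of P95H PHZ replicates 1, 3 and 5, P95H PBS replicates 2, 4 and 5, Mx1-Cre PHZ replicates 1, 2, 3, 4 and 5 or Mx1-Cre PBS replicates 1 and 5 (adjusted p = 0.0528 to 0.147), and the Mx1-Cre call without Mx1-Cre PBS replicate 4 (adjusted p = 0.0627).

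Tk1 (ENSMUSG00000025574, chr11:117815526-117826092, minus strand), the cytosolic thymidine kinase of dividing cells, had 219, 171, 210.2, 189.5 and 253 in the P95H PHZ libraries, against 229, 231, 206, 266 and 213 in the P95H PBS libraries. In Mx1-Cre mice it had 224, 196, 225, 216 and 235 in the Mx1-Cre PHZ libraries, against 265, 277, 292, 238 and 236 in the Mx1-Cre PBS libraries. The Mx1-Cre groups did not overlap, although Mx1-Cre PHZ replicate 5 and Mx1-Cre PBS replicate 5 nearly met, and the P95H groups did. Tk1 fell in Mx1-Cre (log2 change of -0.25 with SE 0.0892, adjusted p = 0.0358) and was not called in P95H (log2 change of -0.14 with SE 0.0892, adjusted p = 0.248). The Mx1-Cre call was lost without any 1 of Mx1-Cre PHZ replicates 1, 2, 3 and 4 or Mx1-Cre PBS replicates 1, 2 and 3 (adjusted p = 0.0502 to 0.0976). The large reductase subunit Rrm1 averaged 566 ± 62.9 in P95H PHZ and 556 ± 10.2 in P95H PBS (log2 change of 0.02 with SE 0.0607, adjusted p = 0.839), and 584 ± 7.83 in Mx1-Cre PHZ and 571 ± 35.1 in Mx1-Cre PBS (log2 change of 0.04 with SE 0.0607, adjusted p = 0.693; SD, n = 5 each). Tyms, thymidylate synthase, was not called (log2 change -0.13, SE 0.0606 in P95H and log2 change -0.11, SE 0.0606 in Mx1-Cre).

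Because 1 factor scales a whole library, ratios of 2 genes in a library do not depend on it. The ratios given here were chosen after the values had been seen and carry no test. Each holds a gene called after PHZ above, so a separation is not separate support for that call. The share of other gene pairs that separate the treatments is not given here. Pold2 over Pold1 was 1.35 to 1.64 in P95H PHZ and 1.11 to 1.31 in P95H PBS, and 1.41 to 1.69 in Mx1-Cre PHZ and 1.00 to 1.28 in Mx1-Cre PBS. Every PHZ library thus lay above every PBS library of its genotype. The same held for Rrm2 over Rrm1, at 0.911 to 0.998 in P95H PHZ and 0.674 to 0.874 in P95H PBS, and 0.910 to 0.969 in Mx1-Cre PHZ and 0.673 to 0.887 in Mx1-Cre PBS. It also held for Orc2 over Mcm7, at 0.270 to 0.328 in P95H PHZ and 0.181 to 0.246 in P95H PBS, and 0.281 to 0.321 in Mx1-Cre PHZ and 0.209 to 0.243 in Mx1-Cre PBS. Pola1 over Pola2 separated the treatments in P95H (0.448 to 0.523 in PHZ and 0.391 to 0.437 in PBS) and overlapped in Mx1-Cre (0.371 to 0.452 in PHZ and 0.377 to 0.460 in PBS). Cdt1 over Gmnn overlapped between treatments in both genotypes, at 0.848 to 1.03 in P95H PHZ and 0.860 to 1.04 in P95H PBS, and 0.921 to 1.05 in Mx1-Cre PHZ and 0.838 to 1.06 in Mx1-Cre PBS. A ratio shows that 2 genes changed unequally and not which of them changed.

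**Figure D4:**
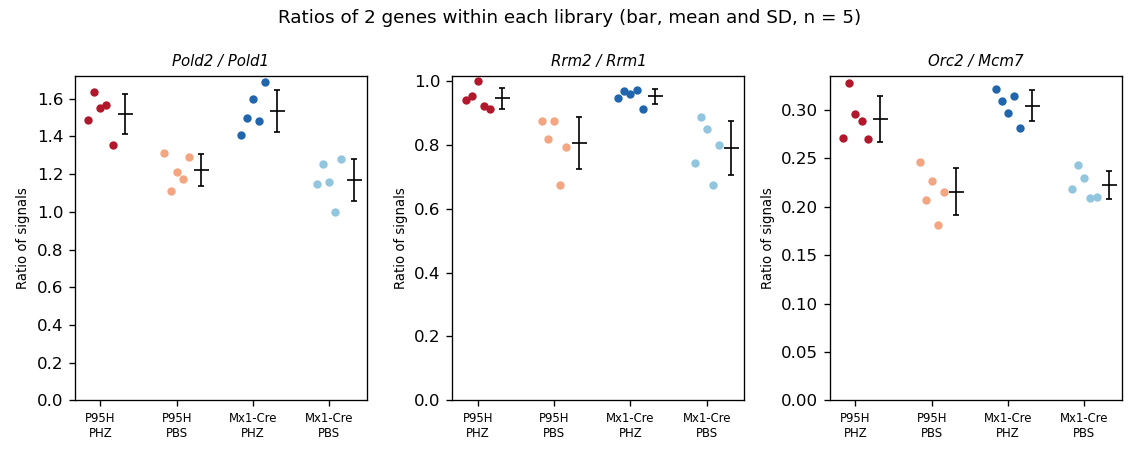
Ratio of the signals of 2 genes in each library, with the mean and SD of each group of 5 beside the dots. For Pold2 over Pold1, Rrm2 over Rrm1 and Orc2 over Mcm7, the lowest PHZ library lies above the highest PBS library in each genotype, and the 2 genotypes overlap within each treatment.

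Between genotypes, none of the 44 genes passed the threshold in limma under either treatment. After PHZ, P95H against Mx1-Cre, 0 of 44 were called, beside 5.47% of all entries (596 of 10890), and 3 had an unadjusted p under 0.05, beside 21.5% of all entries. These were Cdc45 (log2 change of -0.16 with SE 0.0524, adjusted p = 0.0784), Pcna (log2 change of -0.17 with SE 0.0604, adjusted p = 0.104) and Gins4 (log2 change of -0.17 with SE 0.0683, adjusted p = 0.160). Pcna had 1025, 891, 989, 917 and 1046 in P95H PHZ, against 1087, 1061, 1070.2, 1086 and 1159.7 in Mx1-Cre PHZ. All 5 of the P95H values as deposited were below every Mx1-Cre value, as was so for 5.38% of all entries. This separation depends on the scaling. The library factor was 0.940 in P95H PHZ replicate 5 (Pcna 1046) and 0.998 in Mx1-Cre PHZ replicate 3 (Pcna 1070.2). Cdc45 averaged 68.5 ± 3.52 in P95H PHZ and 76.5 ± 3.75 in Mx1-Cre PHZ, and Gins4 averaged 59.1 ± 6.89 in P95H PHZ and 66.1 ± 3.98 in Mx1-Cre PHZ (SD, n = 5 each). The 44 point estimates lay between -0.17 and 0.11, with 95% intervals reaching -0.31 and 0.24. Their median was -0.05, as was that of all entries. Pcna was called without P95H PBS replicate 1 (adjusted p = 0.0481), so the count was 1 there. That library is in neither group of this comparison. The log2 change stayed at -0.17, and only the shared spread and the adjustment moved.

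Under PBS, P95H against Mx1-Cre, 0 of 44 were called, beside 1.48% of all entries (161 of 10890), and 1 had an unadjusted p under 0.05, beside 14.1% of all entries. That was Tk1, with 229, 231, 206, 266 and 213 in P95H PBS and 265, 277, 292, 238 and 236 in Mx1-Cre PBS (log2 change of -0.19 with SE 0.0892, adjusted p = 0.336). The next smallest p-values were those of Orc5 (log2 change of -0.09 with SE 0.0477, adjusted p = 0.418) and Prim2 (log2 change of -0.10 with SE 0.0591, adjusted p = 0.450), and the groups overlapped for each of these. Point estimates lay between -0.19 and 0.07, with 95% intervals reaching -0.38 and 0.20. Each interval is for 1 gene with the values as deposited, so together they set no joint bound on the differences. The interaction, which asks if PHZ acted unequally in P95H and Mx1-Cre, was called for 0 of the 44 and for 0 of 10890 entries. At an unadjusted p under 0.05 it held 1 of the 44, Orc5 (log2 change of 0.14 with SE 0.0675, adjusted p = 0.798), and 577 of all entries (5.30%).

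Levels of these genes tended to go together within a library. The summed signal of the 44 was 7605 to 9278 in P95H PHZ (8516 ± 734; SD, n = 5) and 8689 to 9160 in P95H PBS (8842 ± 186), and 8616 to 9134 in Mx1-Cre PHZ (8853 ± 217) and 8170 to 9406 in Mx1-Cre PBS (8936 ± 460). P95H PHZ replicates 2 and 4 were lowest, with 5 and 8 of the 44 genes above their own mean over all libraries. P95H PHZ replicate 5 had 36 above and Mx1-Cre PBS replicate 4 had 16. Pairs of the 44 genes had a median Pearson r of 0.40 over the 20 libraries (946 pairs), and of 0.47 once group means were taken off. This is a description, since the genes share libraries and scaling. No r for pairs of other entries is given here, so these values do not show a trait particular to the 44. The median SD within groups was 0.10 on the log2 scale for the 44, against 0.13 for all entries.

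**Figure D5:**
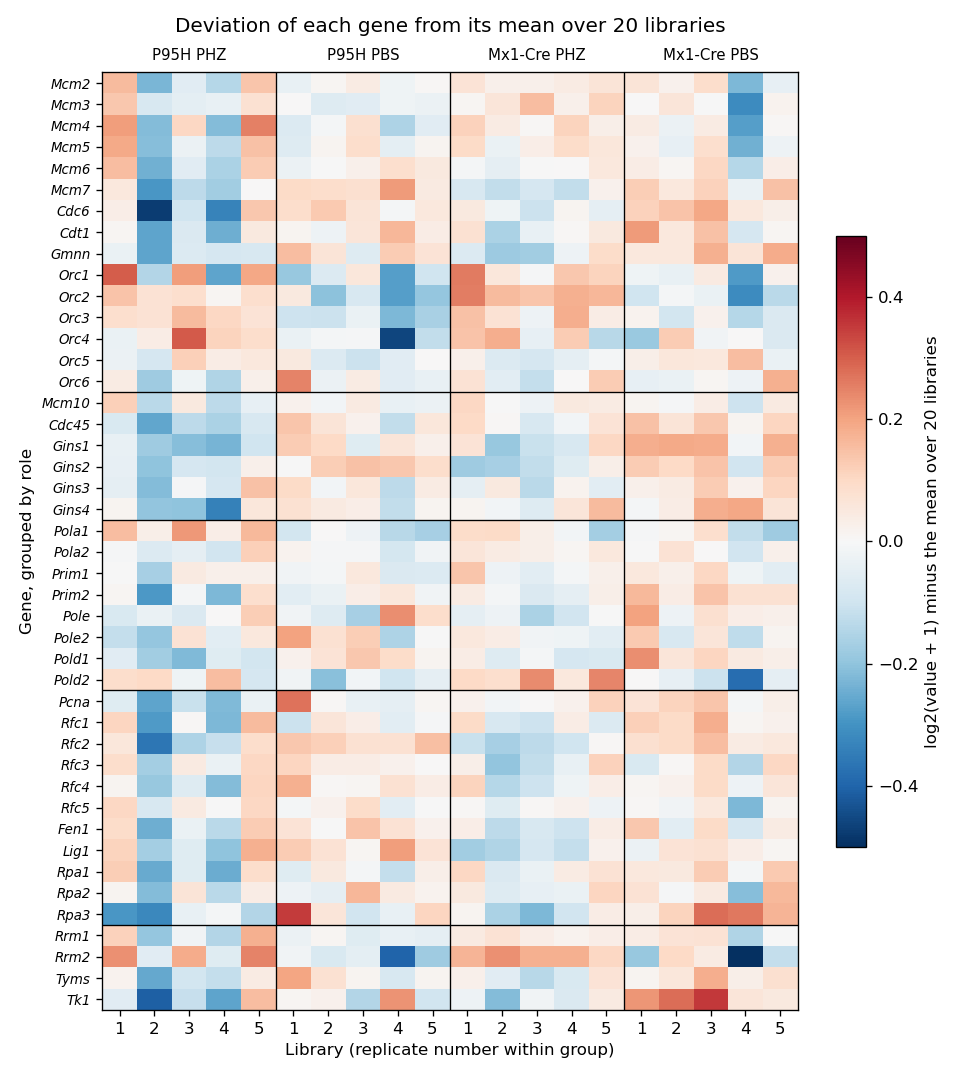
Log2 signal of each of the 44 genes in each library, as the difference from the gene's mean over the 20 libraries, with genes grouped by role and libraries by group. P95H PHZ replicates 2 and 4 are low across most genes, while Rrm2, Orc2 and Orc3 are above their means in most PHZ columns of both genotypes. Rrm2 is below its mean in P95H PHZ replicates 2 and 4, and Orc3 in Mx1-Cre PHZ replicate 3.

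Related genes outside the 44 were listed by function. Their counts are to be read beside the 12.6% of all entries called higher and 17.7% called lower after PHZ in P95H, and the 17.0% higher and 14.9% lower in Mx1-Cre. Of 33 other initiation and fork factors, 2 were higher and 3 lower after PHZ in P95H, and 4 higher and 3 lower in Mx1-Cre. Mcmbp, which encodes an MCM-binding protein, was higher in both (log2 change 0.25, SE 0.0594 in P95H and log2 change 0.30, SE 0.0594 in Mx1-Cre). Rnaseh2c, a subunit of the nuclease that removes ribonucleotides from DNA, was lower in both (log2 change -0.40, SE 0.0740 in P95H and log2 change -0.31, SE 0.0740 in Mx1-Cre), and so was the fork-protection gene Timeless (log2 change -0.20, SE 0.0688 in P95H and log2 change -0.30, SE 0.0688 in Mx1-Cre). Cdc7, the kinase that fires origins, was lower in Mx1-Cre (log2 change -0.26, SE 0.0713). Between genotypes after PHZ, 1 of the 33 was called, Rnaseh2a, which was higher in P95H (log2 change 0.26, SE 0.0754, adjusted p = 0.0470).

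Of 30 other genes of nucleotide metabolism, 6 were higher and 4 lower after PHZ in P95H (12.6% higher and 17.7% lower over all entries), and 15 higher and 2 lower in Mx1-Cre (17.0% and 14.9% over all entries), with median log2 changes of 0.10 in P95H and 0.20 in Mx1-Cre. Cad, which starts pyrimidine synthesis, was higher in both genotypes (log2 change 0.32, SE 0.0739 in P95H and log2 change 0.44, SE 0.0739 in Mx1-Cre). The mitochondrial deoxynucleoside kinase Dguok was lower in both (log2 change -0.52, SE 0.121 in P95H and log2 change -0.56, SE 0.121 in Mx1-Cre). Impdh1, an enzyme of guanine nucleotide synthesis, was higher in Mx1-Cre (log2 change 0.43, SE 0.0990), as was the deaminase gene Dctd (log2 change 0.39, SE 0.126). Between genotypes after PHZ, Adsl and Impdh2 of this list were lower in P95H (Adsl log2 change -0.33, SE 0.0805, Impdh2 log2 change -0.16, SE 0.0453).

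Of 13 genes of the E2F and RB family, 2 were higher and 0 lower after PHZ in P95H, and 4 higher and 1 lower in Mx1-Cre. Over all entries the shares were 12.6% higher and 17.7% lower in P95H and 17.0% higher and 14.9% lower in Mx1-Cre, for this list and the lists that follow. E2f7, an atypical E2F that represses transcription, was higher in both (log2 change 0.91, SE 0.122 in P95H and log2 change 0.76, SE 0.122 in Mx1-Cre), and so was Tfdp1, the partner of E2F proteins (log2 change 0.17, SE 0.0541 in P95H and log2 change 0.23, SE 0.0541 in Mx1-Cre). Of 26 mitotic genes, 10 were higher and 0 lower in P95H, and 5 higher and 1 lower in Mx1-Cre, among them Kif23, a motor of cytokinesis (log2 change 0.62, SE 0.101 in P95H), and Ccnb1, cyclin B1 (log2 change 0.39, SE 0.10 in P95H and log2 change 0.27, SE 0.10 in Mx1-Cre). Of 13 genes that time licensing by protein degradation or cyclin activity, 3 were higher and 3 lower in P95H, and 4 higher and 2 lower in Mx1-Cre. There the D-type cyclin Ccnd2 rose in both genotypes (log2 change 1.35, SE 0.164 in P95H and log2 change 1.48, SE 0.164 in Mx1-Cre), and Cul4a, a scaffold of the ligase that degrades CDT1, fell in both (log2 change -0.33, SE 0.0702 in P95H and log2 change -0.42, SE 0.0702 in Mx1-Cre). No gene of these 5 lists was called between the genotypes under PBS. The same scaling and marker levels described above apply to these lists.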

How the data were processed

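The authors deposited a single table in which 37748 gene entries hold a normalised signal for each of 20 libraries. The submitters' processing notes name RSEM 1.2.4, Bowtie, TopHat2 2.0.8b and TopHat, and the builds mm10, GRCm38, hg19 and GRCh37, without their roles. Values in each library, once divided by a factor of its own (0.940 to 1.10), were whole multiples of 0.01 throughout (100%), as rounded TPM values would be, and then summed to 979638 to 992743. The sources used here give neither the origin of these factors nor the strand setting of the counting. With no counts in the table, depth enters no interval or limit.

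Symbols came from GENCODE vM21 for GRCm38, which named 35986 entries, and positions are 1-based GRCm38 coordinates. Promoters came from RefSeq (GRCm38.p6). Signals were analysed as log2(signal + 1), which understates changes of low genes, for the 10890 entries that reached 1 in 5 or more libraries. The model, from limma 3.58.1 under R 4.3.3, had a mean for each of the 4 groups and used trended and robust moderation. Its spread per gene was estimated from all 20 libraries together. Omitting a library outside the compared groups thus leaves a fold change as it was, and moves only its spread and the adjustment. Its 5 contrasts were tested two-sided, p-values were adjusted by Benjamini-Hochberg over 10890 entries, and the threshold was 0.05. Alternatives were other scalings, pseudocounts and filters, a fit of the compared groups alone, a replicate block, the granulocyte and monocyte marker mean as a covariate, and omission of 1 library at a time. Scaling by trimmed means of log ratios (TMM) and omission of P95H PBS replicates 4 and 5 together were added after the data had been seen. The code of the fit was also run on simulated data, and no result given here rests on that run. Figures were drawn with Python 3.11.15 and matplotlib 3.10.9.

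Every member is named in its role. All library values are given for Mcm2 to Mcm7 and, per pairwise comparison, for the 3 called genes with the highest and the 3 with the lowest fold change, or the 3 with the smallest p where fewer than 3 were called. The other lists are illustrated by called genes with large fold changes. The members and lists were chosen with earlier results of these data known.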

Additional observations from a re-analysis of the deposited data

Results flagged for a closer look

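Within groups of 5 libraries, 13 of 176 combinations of a gene and a group had 1 library set apart, with its gap to the nearest library over 0.71 of the group's range. Chance alone sets apart about 1 in 20 groups. In P95H PHZ replicate 2, the geminin gene Gmnn was below the rest of its group, at 174.2 against 197.7 to 204.8 in the other libraries. The primase gene Prim1 was low there too, at 119.3 against 133.6 to 138.2. In P95H PBS replicate 1, Pcna was above the rest of its group, at 1292 against 1037 to 1078 in the other libraries. In P95H PBS replicate 4, Mcm7 was above the rest of its group, at 629.0 against 559.5 to 579.4 in the other libraries. Orc4 was below the rest of the same group in that library, at 25.89 against 32.89 to 35.73. In Mx1-Cre PHZ replicate 5, Pcna was above the rest of its group, at 1160.0 against 1061 to 1087 in the other libraries. Mx1-Cre PBS replicate 4 held 6 of the 13. In Mx1-Cre PBS replicate 4, the helicase subunit gene Mcm3 was below the rest of its group, at 297.0 against 369.5 to 385.6 in the other libraries. The helicase subunit gene Mcm4 was low there too, at 231.9 against 275.1 to 289.0. Orc1 was low there too, at 35.08 against 41.81 to 44.29. Gins1 was low there too, at 84.06 against 96.13 to 97.08. Gins2 was low there too, at 71.74 against 82.24 to 84.74. The clamp loader gene Rfc5 was low there too, at 116.9 against 135.0 to 142.1. In Mx1-Cre PBS replicate 5, Orc6 was above the rest of its group, at 175.2 against 150.3 to 155.9 in the other libraries. Calls that were lost without one of these libraries are given with each gene above.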

How the results depend on the processing

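Over 31 alternatives no called gene changed direction. The median of the 44 turned positive with the authors' factor divided out in P95H after PHZ (0.05), in Mx1-Cre after PHZ (0.0033), between genotypes after PHZ (0.01) and in the interaction (0.03). It also did so with the marker covariate in P95H after PHZ (0.01), under quantile normalization between genotypes after PHZ (0.02) and in the interaction (0.05), without P95H PHZ replicate 2 in the interaction (0.03), and without P95H PBS replicates 4 and 5 between genotypes under PBS (0.01). With the authors' factor divided out, lower calls among the 44 genes after PHZ went to 0 in P95H and 1 in Mx1-Cre, from 9 and 8. Lower calls over all entries were then 1117 in P95H and 1219 in Mx1-Cre, from 1923 and 1618. Higher calls among the 44 stayed within 1.5 times (7 in P95H, beside 2575 of 10890 entries). Quantile normalization gave 14 lower calls in Mx1-Cre, with Orc5, Cdc45, Prim2, Pole, Lig1 and Tyms added, beside 1720 of all 10890 entries. Testing with no filter, which raised the entries tested to 20259, gave 3 higher calls in P95H and 4 lower calls in Mx1-Cre. Of those entries, 1384 were higher in P95H and 1491 lower in Mx1-Cre. The granulocyte and monocyte marker covariate left 0 higher and 1 lower in P95H, and 2 higher and 0 lower in Mx1-Cre, though some log2 fold changes stayed about as large (Rpa3 -0.22 in P95H and -0.25 in Mx1-Cre). Leaving out P95H PBS replicates 4 and 5 together, an alternative chosen after seeing the data, left 1 higher and 4 lower in P95H. Leaving out each library in turn gave 3 to 5 higher and 3 to 14 lower calls in P95H after PHZ, 2 to 4 higher and 1 to 8 lower calls in Mx1-Cre after PHZ, and 0 to 1 lower call between genotypes after PHZ. The share of all entries called then ran from 24.7% to 32.1% in P95H, from 23.9% to 33% in Mx1-Cre and from 2.93% to 6.41% between genotypes after PHZ. Higher calls between genotypes after PHZ and calls between genotypes under PBS stayed at 0 in every alternative. Interaction calls stayed at 0 in 30, since the fit of the compared groups alone gives no interaction. Of the single calls, 0 of 14 in P95H and 2 of 12 in Mx1-Cre (Orc2 and Pold2) held in all 31. Same-numbered libraries did not tend to deviate together (r from -0.31 to 0.44, median 0.03, over 30 pairs, against a median of -0.02 over 120 pairs with different numbers). This cannot exclude a pairing by number, which the labels do not state, and the libraries were treated as unpaired. With the number as a replicate block, 1 gene was lower between genotypes after PHZ (Cdc45, adjusted p = 0.0480), and the other counts stayed within 1.5 times. Read depth per value is unknown and 5 libraries a group limit the precision, so changes of the size seen here lie close to what the fit resolves. Cell numbers and purity per library are not given in the sources used here, and the causes of these shifts were not tested.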
